A study of Mus musculus with 4 samples.

Results

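The forkhead transcription factors, the Fox family, were followed in whole mouse embryos that were wild type or homozygous for Tc, a mutant allele of T (Brachyury). Members were the 44 genes, of 36808 in the deposited tables, whose symbol is Fox, a subfamily letter from a to s and a number. Directional mRNA-seq was done on 4 groups with 1 library each, wild type and Tc/Tc at E7.5 to 8.0 (here E8) and wild type and Tc/Tc at E10.0 to 10.5 (here E10). The mouse strain of origin is (C3H/HeH x 101/H)F1 in each group, and no treatment is given. How many embryos went into a library is not stated in the labels, and a whole embryo mixes all its tissues. No group has a replicate, so the values carry no SD, no difference could be tested, and read depth is known only relative to the other libraries.

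Forkhead proteins share a winged-helix DNA-binding domain and are named by letter for the subfamily. Foxa proteins open chromatin in the endoderm, node, notochord and floor plate, and Foxa2 is needed to form the node and notochord, where T also acts. Foxh1 carries Nodal signals to DNA together with Smad2 and Smad4. Foxc proteins act in paraxial mesoderm and vessels, Foxf in lateral and extraembryonic mesoderm, and Foxd3 in the epiblast and neural crest, whereas Foxk, Foxj3, Foxn3, Foxo, Foxm1 and most Foxp genes are used by many cell types.

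Levels are FPKM, fragments per kilobase of transcript and per unit of library size, as the authors deposited them, which are per length and can be compared between genes. Of the 44 members, 29 reached 1 FPKM in 1 or more libraries, 9 were above 0 but never reached 1 FPKM, and 6 were listed at 0 in every column used. The 6 were Foxe3, Foxi1, Foxn1, Foxn2, Foxp3 and Foxs1, and a 0 can be a failed estimate. Foxm1, the mitotic forkhead factor, shows this. It was listed at 0 for both E8 libraries in the E8 genotype table and for both libraries of the wild-type stage table, but stood at 26.0 FPKM for Tc/Tc E8 in the Tc/Tc stage table, and at 43.5 FPKM in wild type E10 and 35.2 in Tc/Tc E10. At least 1 FPKM was reached by 25 members in wild type E8, 19 in Tc/Tc E8, 24 in wild type E10 and 27 in Tc/Tc E10.

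**Figure D1:**
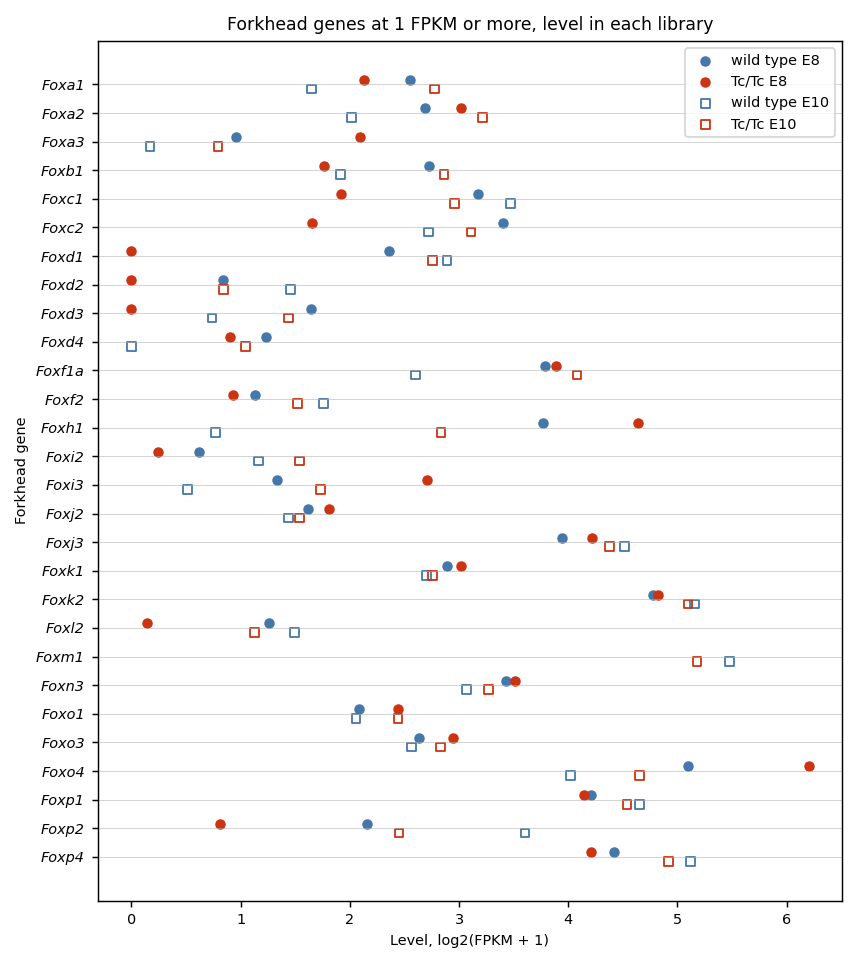
Level of 28 of the 29 forkhead genes that reached 1 FPKM, as log2(FPKM + 1) on the horizontal axis, 1 point per library (filled circles E8, open squares E10, blue wild type, red Tc/Tc). Foxd1, Foxd2 and Foxd3 sit at 0 in Tc/Tc E8, the Foxh1 points are highest in Tc/Tc E8 (24.0 FPKM), and Foxk1 and Foxn3 have their 4 points close together; Foxm1 has no E8 value in the table plotted.

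Many promoters of the members were rich in CpG, which the choice of genes did not use. In the RefSeq promoter table (build GRCm38.p6, 250 bases before to 50 after the start), which held 33 promoters of 28 members, the median promoter of 300 bases had 22 CpG dinucleotides and 62.7% G and C, against 7 CpG and 52.7% over all 32851 promoters. At least 10 CpG were present in 75.8% of the member promoters and in 43.5% of all promoters. Those of 3 genes that were lower in the Tc/Tc library at E8 (Foxd1, Foxd3 and Foxc1) and of Foxi3, which was higher at both stages, are shown so that this can be seen, 5′ to 3′ with each CpG in capitals.
Foxd1, chr13:98353995-98354294, plus strand: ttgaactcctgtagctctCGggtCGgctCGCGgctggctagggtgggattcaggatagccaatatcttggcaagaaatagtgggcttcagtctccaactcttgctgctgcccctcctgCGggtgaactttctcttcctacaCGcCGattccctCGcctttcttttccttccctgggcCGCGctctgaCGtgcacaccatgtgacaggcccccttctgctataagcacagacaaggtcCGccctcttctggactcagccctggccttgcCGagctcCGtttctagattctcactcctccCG
Foxd3, chr4:99656049-99656348, plus strand: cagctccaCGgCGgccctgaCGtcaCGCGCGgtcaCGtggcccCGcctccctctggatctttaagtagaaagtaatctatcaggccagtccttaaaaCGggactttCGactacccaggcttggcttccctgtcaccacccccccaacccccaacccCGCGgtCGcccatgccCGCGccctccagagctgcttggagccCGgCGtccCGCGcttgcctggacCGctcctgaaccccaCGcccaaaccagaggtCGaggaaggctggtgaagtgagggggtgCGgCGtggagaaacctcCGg
Foxc1, chr13:31806396-31806695, plus strand: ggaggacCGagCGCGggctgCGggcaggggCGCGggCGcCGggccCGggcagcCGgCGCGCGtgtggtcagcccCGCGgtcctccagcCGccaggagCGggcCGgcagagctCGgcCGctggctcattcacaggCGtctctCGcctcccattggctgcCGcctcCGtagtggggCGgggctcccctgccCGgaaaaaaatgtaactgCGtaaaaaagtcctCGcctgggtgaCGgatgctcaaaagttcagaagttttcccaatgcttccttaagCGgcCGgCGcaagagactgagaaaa
Foxi3, chr6:70956356-70956655, plus strand: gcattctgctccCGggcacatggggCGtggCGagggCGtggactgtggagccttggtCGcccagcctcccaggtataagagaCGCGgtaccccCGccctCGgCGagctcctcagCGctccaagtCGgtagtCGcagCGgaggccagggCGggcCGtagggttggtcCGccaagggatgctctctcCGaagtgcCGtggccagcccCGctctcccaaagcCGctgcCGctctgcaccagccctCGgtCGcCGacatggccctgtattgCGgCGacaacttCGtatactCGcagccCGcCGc
The 4 promoters held 15, 25, 32 and 31 CpG in the order shown, so Foxd1 was the poorest of them and genes of both directions are among them. Letters of a T-box core (AGGTGTG, either strand) occurred in 0 of the 33 member promoters and in 5.84% of all promoters. Forkhead letters occurred as TGTTTAC in 1 member promoter (Foxa1; 3.65% of all promoters) and as TGTTTGC in 2 (Foxj3 and Foxp1; 5.07% of all), on either strand. These windows are short, and a match or its absence says nothing of binding.

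At E8 the Tc/Tc library had lower levels of 7 forkhead genes and higher levels of 3. Among the 7 were Foxc1, Foxc2, Foxd1, Foxd3, Foxl2 and Foxp2, and the 3 were Foxa3, Foxi3 and Foxo4. Higher and lower mean a ratio of (FPKM + 1) over (FPKM + 1) of at least 2-fold, a log2 ratio of 1 or more in size, among genes at 1 FPKM or more in 1 or both libraries. The pseudocount of 1 understates the ratio of low genes, and the rule describes 2 single libraries. Of 26 members that could be compared, 38.5% passed, 26.9% lower and 11.5% higher. The same rule took 7.22% of all 13547 genes, 3.0% lower and 4.21% higher. For the family as a whole the median log2 ratio was -0.01, against 0.06 over all genes, and 16 of the 26 were within the rule. Scaled to equal totals of FPKM, the members split 8 lower and 1 higher in place of 7 and 3 (all genes 4.16% lower and 2.84% higher). Foxa3 and Foxo4 then lay just inside the rule, at log2 ratios of 0.99 and 0.88, and Foxb1 passed it at -1.13.

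At E10 the Tc/Tc library had higher levels of 6 members, Foxa1, Foxa2, Foxd4, Foxf1a, Foxh1 and Foxi3, and a lower level of 1, Foxp2. Of 28 members compared, 25.0% passed, 21.4% higher and 3.57% lower. The same rule took 8.03% of all 14265 genes, 4.94% higher and 3.08% lower. The family had a median log2 ratio of 0.15 and all genes one of 0.16. With ratios centred on that median of all genes, 4 members were higher and 1 lower, since Foxa1 (0.97) and Foxd4 no longer passed. Of all genes, 3.41% were then higher and 3.98% lower.

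The genotype comparisons share no library. Foxi3 was the 1 member higher in both and Foxp2 the 1 member lower in both. The share of all genes past the rule at both stages was not counted, so this overlap has no background beside it. The cutoff also parts members that kept a direction. Foxh1 had log2 ratios of 0.88 at E8 and 2.06 at E10, and Foxo4 of 1.10 and 0.63. Foxa3 was higher at E8 and below the minimum at E10. Of the 7 genes lower at E8, the 6 besides Foxp2 were within the rule at E10. No member was lower at one stage and higher at the other. For these 2 statements too, the share of all genes was not counted. Of all genes measured at E10, 3.08% were lower, so few genes of any kind passed there. The E10 log2 ratio lay above the E8 one in 16 of 25 members compared at both stages (64.0%), close to the 64.5% of all 12869 genes for which this held.

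**Figure D2:**
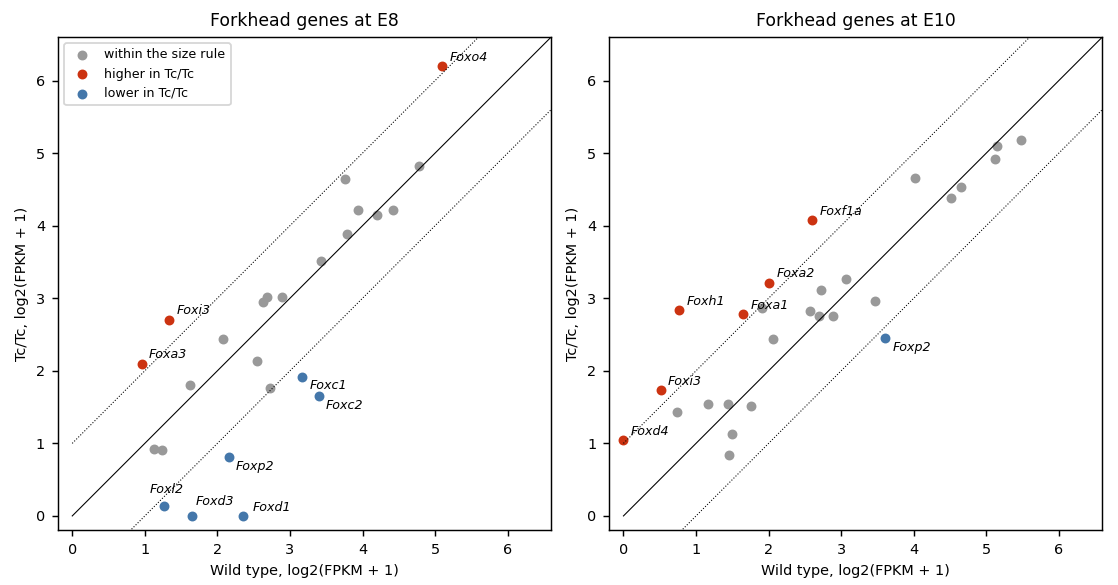
Level of forkhead genes in Tc/Tc (vertical) against wild type (horizontal), both as log2(FPKM + 1), at E8 on the left and E10 on the right; the solid line marks equal levels and the dotted lines the size rule of 1 on the log2 scale. At E8 the 6 blue genes lie below the lower dotted line, with Foxd1 and Foxd3 at 0 in Tc/Tc, and at E10 the 6 red genes lie above the upper one, Foxd4 at 0 in wild type.

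Foxa1 and Foxa2 were closer to wild type at E8 than at E10, whereas Foxa3 gave no ratio at E10. Foxa2, which specifies node, notochord, floor plate and endoderm, was at 5.43 FPKM in wild type E8 and 7.10 in Tc/Tc E8, a log2 ratio of 0.33. At E10 the levels were 3.03 FPKM in wild type against 8.28 in Tc/Tc, giving 1.20. Tc/Tc was thus above wild type at both stages for Foxa2, but only the E10 gap passed the rule. Foxa1, its partner in endoderm, was at 4.86 FPKM in wild type E8 and 3.38 in Tc/Tc E8, and at 2.13 in wild type E10 and 5.85 in Tc/Tc E10. Its log2 ratio was -0.42 at E8 and 1.13 at E10, so Tc/Tc was the lower library at E8 and the higher one at E10. Foxa3, a gut and liver endoderm factor, was at 0.943 FPKM in wild type E8 and 3.27 in Tc/Tc E8, a log2 ratio of 1.14. At E10 it was at 0.125 and 0.733 FPKM, both below the minimum for a comparison.

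Marker genes of the tissues that use Foxa also differed between the genotypes. Of the visceral endoderm and yolk sac list, 10 of 11 measured genes had higher levels in Tc/Tc at E8 and all 12 at E10, with median log2 ratios of 1.46 and 3.49. The summed level of that list was 873 FPKM in wild type E8, 2700 in Tc/Tc E8, 22.0 in wild type E10 and 617 in Tc/Tc E10. Amn and Apoa4 were listed at 0 in wild type E10, and Apoa4 in both E8 libraries, though the Tc/Tc stage table gave it 50.8 FPKM in Tc/Tc E8. The largest ratio at E8 was that of Trf, transferrin, with 132 FPKM in Tc/Tc against 20.1 in wild type, although its second Tc/Tc estimate was 65.5. Cubn, an uptake receptor, followed with 270 and 63.4 FPKM. At E10 the apolipoprotein gene Apoa1 stood at 165 FPKM in Tc/Tc against 0.827 in wild type, and Apob at 61.3 and 0.370. The gut endoderm list had 1 of 9 higher and 1 lower at E8, and 4 of 10 higher at E10 (medians 0.15 and 0.56). Krt19, an epithelial keratin, stood at 29.3 FPKM in Tc/Tc E10 against 6.80 in wild type E10, and Cldn6, a tight junction protein gene, at 42.3 against 12.7. The part of these tissues in the Foxa levels was not tested. In a whole embryo, fewer cells of a type and less RNA per cell cannot be told apart.

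In the node and notochord list, 1 of 7 genes was higher and 1 lower at E8, and 4 of 7 were higher at E10 (medians 0.02 and 1.23). The 2 that passed at E8 were Shh, the notochord and floor plate signal, at 0.193 FPKM in Tc/Tc against 3.28 in wild type, and Cer1, an anterior endoderm antagonist of Nodal, at 12.2 against 3.87. At E10 T itself had the highest ratio of the list, with 30.4 FPKM in Tc/Tc against 7.18 in wild type, followed by Dand5, a Nodal antagonist of the node, with 4.87 and 0.867. Foxj1, which drives motile cilia such as those of the node, stayed below 1 FPKM in each library. It was at 0.201 FPKM in wild type E8, 0.763 in Tc/Tc E8, 0.757 in wild type E10 and 0.239 in Tc/Tc E10, so it gave no ratio. None of the 6 cilium genes measured at E8 and none of the 7 at E10 passed the rule in either direction (medians -0.05 and -0.07).

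Foxh1, the Nodal effector, had the largest E10 ratio of the family. It stood at 12.6 FPKM in wild type E8, 24.0 in Tc/Tc E8, 0.706 in wild type E10 and 6.13 in Tc/Tc E10. The log2 ratio was 0.88 at E8, inside the rule, and 2.06 at E10, which was an 8.69-fold difference of the deposited values. In both genotypes the E10 library had less Foxh1 than the E8 library. Among other genes of the Nodal pathway, 1 of 11 was higher and 1 lower at E8, and 1 of 9 higher at E10 (medians -0.07 and 0.21). Eomes, the T-box factor of streak and trophoblast, was at 4.65 FPKM in Tc/Tc E8 and 0.345 in wild type E8. Tdgf1, the Nodal co-receptor, was at 0.248 FPKM in Tc/Tc E8 and 2.56 in wild type E8, and at 2.27 in Tc/Tc E10 and 0.289 in wild type E10, the opposite order. Nodal itself was listed at 0 in both E10 libraries. Of the epiblast and germ cell list, from the tissue in which Foxh1 first acts, 5 of 7 measured genes had higher levels at E8 and 3 of 4 at E10 (medians 1.5 and 1.41). Their summed level was 301 FPKM in wild type E8, 484 in Tc/Tc E8, 75.5 in wild type E10 and 233 in Tc/Tc E10. Lin28a made up most of each sum, with 270, 303, 73.2 and 222 FPKM in the same order of libraries. The E10 sums therefore say little of the other genes on the list. Dnmt3b was listed at 0 in each library, and Pou5f1, the pluripotency factor, was at 125 FPKM in Tc/Tc E8 against 18.9 in wild type E8. Their part in the Foxh1 level was not tested.

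Foxi3, a factor of the preplacodal ectoderm and pharyngeal arches, was the member that was higher in Tc/Tc at both stages. It stood at 1.52 FPKM in wild type E8 and 5.51 in Tc/Tc E8, and at 0.426 in wild type E10 and 2.32 in Tc/Tc E10. The log2 ratios were 1.37 and 1.22. Foxi2, a related factor of cranial ectoderm, was at 0.538 FPKM in wild type E8 and 0.183 in Tc/Tc E8, too low to compare, and at 1.24 and 1.90 at E10, a log2 ratio of 0.37. Foxi2 was thus also above wild type at E10, but inside the rule, and E8 says nothing of it. The difference between Foxi2 and Foxi3 was not tested.

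The Foxc genes, which act in paraxial mesoderm, somites and vessels, were both lower in Tc/Tc at E8. Foxc1 was at 8.00 FPKM in wild type E8 and 2.78 in Tc/Tc E8, a log2 ratio of -1.25. Foxc2 was at 9.55 and 2.14 FPKM, a log2 ratio of -1.75. At E10 Foxc1 was at 10.1 FPKM in wild type against 6.76 in Tc/Tc (log2 ratio -0.51) and Foxc2 at 5.60 and 7.64 (0.39), neither past the rule. The Tc/Tc library was lower for both at E8, lower for Foxc1 and higher for Foxc2 at E10.

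All 6 measured genes of the paraxial mesoderm and somite list were lower at E8, and 2 of 9 at E10 (medians -1.35 and -0.49). Pax3, a somite and neural tube factor, was at 0.656 FPKM in Tc/Tc E8 and 6.81 in wild type E8, and Tbx6, the presomitic T-box factor, at 1.07 and 4.48. The 2 at E10 were Pax1 and Meox2, sclerotome and somite factors, at 0.704 against 3.15 and 1.33 against 4.25 FPKM. The summed level of the list was 46.1 FPKM in wild type E8, 13.1 in Tc/Tc E8, 58.2 in wild type E10 and 43.8 in Tc/Tc E10, with Ripply2 listed at 0 in each library and Mesp2 and Meox2 in Tc/Tc E8. Of the endothelial list, 3 of 10 genes were lower at E8, Cdh5, Emcn and Dll4, and 1 of 10 at E10 (medians -0.57 and 0.13). The other 7 were within the rule at E8, from -0.91 (Tie1) to 0.26 (Flt1). Cdh5, the endothelial cadherin, was at 3.68 FPKM in Tc/Tc E8 and 9.72 in wild type E8, and at 16.8 and 17.1 at E10. Emcn, endomucin, was listed at 0 in Tc/Tc E8 against 1.5 FPKM, and stood at 5.88 against 15.5 at E10.

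Foxf1a (Foxf1), needed in lateral plate mesoderm, allantois and yolk sac vessels, did not follow the Foxc genes. It stood at 12.8 FPKM in wild type E8 and 13.8 in Tc/Tc E8, a log2 ratio of 0.10, and at 5.08 in wild type E10 and 15.9 in Tc/Tc E10, a log2 ratio of 1.48. Its level in Tc/Tc was thus nearly that of wild type at E8 and above it at E10. Foxf2, a gut and palate mesenchyme factor, was at 1.19, 0.903, 2.39 and 1.87 FPKM in wild type E8, Tc/Tc E8, wild type E10 and Tc/Tc E10, within the rule at both stages. In the list of lateral and extraembryonic mesoderm, 1 of 10 was higher and 3 lower at E8 and 1 of 10 higher at E10 (medians -0.85 and 0.42). Hand1, a factor of lateral and extraembryonic mesoderm and trophoblast, was higher at both stages, with 80.9 against 33.6 FPKM at E8 and 46.7 against 10.6 at E10. Tbx4, a factor of allantois and hindlimb, was at 0.214 FPKM in Tc/Tc E8 and 6.65 in wild type E8, and Wnt2 at 0.548 and 3.55. The trophoblast and decidua list had higher levels for 4 of 7 at E8 and 1 of 4 at E10 (medians 1.07 and 0.38). They summed to 46.6 FPKM in wild type E8, 108 in Tc/Tc E8, 25.9 in wild type E10 and 65.0 in Tc/Tc E10, with Tpbpa and Prl3d1 at 0 in each library. Hand1 was most of the sum in both E8 libraries and in Tc/Tc E10. In wild type E10, Des was at 11.0 FPKM beside 10.6 for Hand1. The largest ratios at E8 were those of Elf5, at 9.90 FPKM in Tc/Tc against 0.425, and Prl8a2, at 3.21 against a listed 0. Hand1 is on both of these lists, and the part of those tissues in the Foxf1a level was not tested.

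Members that lie beside each other in the genome differed in their ratios. On chromosome 8 the GENCODE M21 annotation places Foxf1, Mthfsd, Foxc2 and Foxl1 in a row. Foxc2 was lower at E8 and Foxf1a was not, whereas at E10 Foxf1a was higher and Foxc2 was within the rule. Foxl1, a gut mesenchyme factor, was at 0.382 FPKM in wild type E8, listed at 0 in Tc/Tc E8, and at 0.374 and 0.305 at E10, too low to compare. On chromosome 13, Foxq1, Foxf2 and Foxc1 follow each other, and only Foxc1 of these passed the rule, at E8; Foxq1 stayed at or below 0.285 FPKM in these 4 libraries.

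Foxd1, Foxd2 and Foxd3 were listed at 0 in Tc/Tc E8. Foxd1, a factor of kidney stroma and ventral diencephalon, was at 4.13 FPKM in wild type E8 and at 0 in Tc/Tc E8, in both tables that hold that library. At E10 the levels were 6.42 FPKM in wild type against 5.75 in Tc/Tc, giving a log2 ratio of -0.14. Foxd3, which is needed in the epiblast and for neural crest, was at 2.13 FPKM in wild type E8 and again listed at 0 in Tc/Tc E8 in both tables, and at 0.666 and 1.71 at E10, a log2 ratio of 0.70. Both genes were thus without an estimate above 0 in Tc/Tc E8 and present in Tc/Tc E10. Foxd2, a paraxial mesoderm factor, was at 0.790 FPKM in wild type E8, listed at 0 in Tc/Tc E8, and at 1.75 and 0.795 in wild type and Tc/Tc at E10. Foxd4, expressed in early neural ectoderm, was the exception, with 1.35 FPKM in wild type E8 and 0.869 in Tc/Tc E8, listed at 0 in wild type E10 and at 1.06 in Tc/Tc E10. No fold is given against a 0.

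In the neural crest list 3 of 8 genes were lower at E8, Sox9, Sox10 and Ngfr, and none passed the rule at E10 (medians -0.66 and -0.02). Sox9, a crest and cartilage factor, was at 7.94 FPKM in Tc/Tc E8 (second estimate 4.65) and 25.0 in wild type E8, and at 32.7 in both genotypes at E10. Sox10, a factor of migrating crest, was listed at 0 in Tc/Tc E8 against 1.87 FPKM, and stood at 9.04 in Tc/Tc E10 against 4.87. Of the 5 within the rule at E8, the log2 ratios ran from -0.69 (Pax7) to 0.09 (Erbb3). Summed over the list, levels were 55.1 FPKM in wild type E8, 27.4 in Tc/Tc E8, 78.5 in wild type E10 and 79.1 in Tc/Tc E10. The share of crest in the Foxd3 level was not tested.

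Foxb1, a factor of diencephalon and spinal cord, was at 5.60 FPKM in wild type E8 and 2.40 in Tc/Tc E8, and at 2.77 and 6.28 at E10. Its log2 ratios of -0.95 and 0.95 lay just inside the rule in opposite directions, and centred on the median of all genes the E8 ratio passed it at -1.01. The antisense transcript B230323A14Rik overlaps Foxb1 exons on the other strand, as Foxl2os does for Foxl2, and the labels do not state whether fragments were assigned by strand. In the forebrain list 1 of 4 genes was lower at E8, Emx2 at 0.381 against 1.88 FPKM, and 1 of 8 was higher at E10, Hesx1 at 7.16 against 0.648 (medians -0.36 and -0.03).

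Foxp2, known for its part in neural circuits and lung, was lower in Tc/Tc at both stages. It stood at 3.45 FPKM in wild type E8, 0.752 in Tc/Tc E8, 11.2 in wild type E10 and 4.46 in Tc/Tc E10, with log2 ratios of -1.35 and -1.15. The second estimates gave -1.23 at E8 and, with wild type E10 at 14.9 FPKM, -1.54 at E10. Its relatives Foxp1 and Foxp4 were within the rule at both stages. Foxp1 was at 17.4 and 16.6 FPKM at E8 and at 24.1 and 22.2 at E10, and Foxp4 at 20.3 and 17.5 at E8 and 33.8 and 29.2 at E10, wild type first. Their log2 ratios lay between -0.21 and -0.06, and with the second estimates between -0.35 and -0.30. Foxl2, a factor of the ovary and eyelid mesenchyme, was at 1.40 FPKM in wild type E8 and 0.103 in Tc/Tc E8, a log2 ratio of -1.12, and at 1.81 and 1.19 at E10 (-0.36).

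The 3 Foxo genes that could be compared, factors that respond to insulin and growth factor signals, were above wild type in Tc/Tc at both stages. Only Foxo4 at E8 passed the rule. Foxo4 was the highest estimated member at E8, at 33.3 FPKM in wild type against 72.5 in Tc/Tc, a log2 ratio of 1.10. At E10 it was at 15.2 and 24.1 FPKM (0.63). Foxo1 was at 3.23 and 4.43 FPKM at E8 and 3.16 and 4.43 at E10, and Foxo3 at 5.19 and 6.70, then 4.92 and 6.10. Scaled to equal totals, the E8 log2 ratios of Foxo1 and Foxo3 were 0.18 and 0.12. Centred on the median of all genes, their E10 ratios were 0.22 and 0.10. None of 11 measured Foxo target genes passed the rule at E8 or at E10 (medians -0.03 and 0.36), the largest being Ccng2 at E8 (-0.58) and Cited2 at E10 (0.98).

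Of 25 members measured in all 4 comparisons, 10 were within the rule in each: Foxf2, Foxj2, Foxj3, Foxk1, Foxk2, Foxn3, Foxo1, Foxo3, Foxp1 and Foxp4. Their genotype log2 ratios ranged from -0.21 to 0.36 at E8 and from -0.24 to 0.38 at E10. The share of all genes within the rule in all 4 comparisons was not counted, so the 10 have no background beside them. Foxk2, a repressor of starvation genes, was at 26.4 FPKM in wild type E8, 27.3 in Tc/Tc E8, 34.6 in wild type E10 and 33.2 in Tc/Tc E10. Its partner Foxk1 was at 6.44, 7.09, 5.50 and 5.75 FPKM in the same order of libraries. Foxj3 was at 14.4, 17.6, 21.9 and 19.8 FPKM and Foxj2 at 2.07, 2.51, 1.71 and 1.91. Foxn3, a checkpoint factor, was at 9.77, 10.4, 7.41 and 8.64 FPKM. In each of these genes the libraries of a stage lay closer to each other than the size rule. Foxm1 gave a log2 ratio of -0.30 at E10 and none at E8. None of 12 mitotic targets of Foxm1 passed at either stage (medians 0.17 and 0.14); the largest were Nek2 at E8 (0.44) and Cenpf at E10 (0.52). Of common reference genes 0 of 10 passed at E8 and 2 of 10 were higher at E10, Ywhaz and Pgk1 (medians 0.19 and 0.32). Ywhaz stood at 285 FPKM in wild type E10 in that table and at 530 in the other, against 670 in Tc/Tc E10.

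The members that never reached 1 FPKM gave no ratio. Besides Foxj1, Foxl1 and Foxq1 they were Foxb2, Foxe1, Foxn4, Foxo6, Foxr1 and Foxr2. Foxr1 was above 0 in each library, from 0.427 FPKM in wild type E10 to 0.659 in Tc/Tc E10, and so was Foxr2, from 0.0704 in wild type E10 to 0.408 in Tc/Tc E8. Foxe1, a thyroid factor, was at 0.602 FPKM in wild type E10 and 0.131 in Tc/Tc E10 and listed at 0 in both E8 libraries. Foxo6 stayed between 0.132 and 0.245 FPKM. Foxb2 was above 0 in wild type E10 alone (0.193 FPKM), and Foxn4, a retina and spinal cord factor, in Tc/Tc E8 (0.164) and wild type E10 (0.305).

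**Figure D3:**
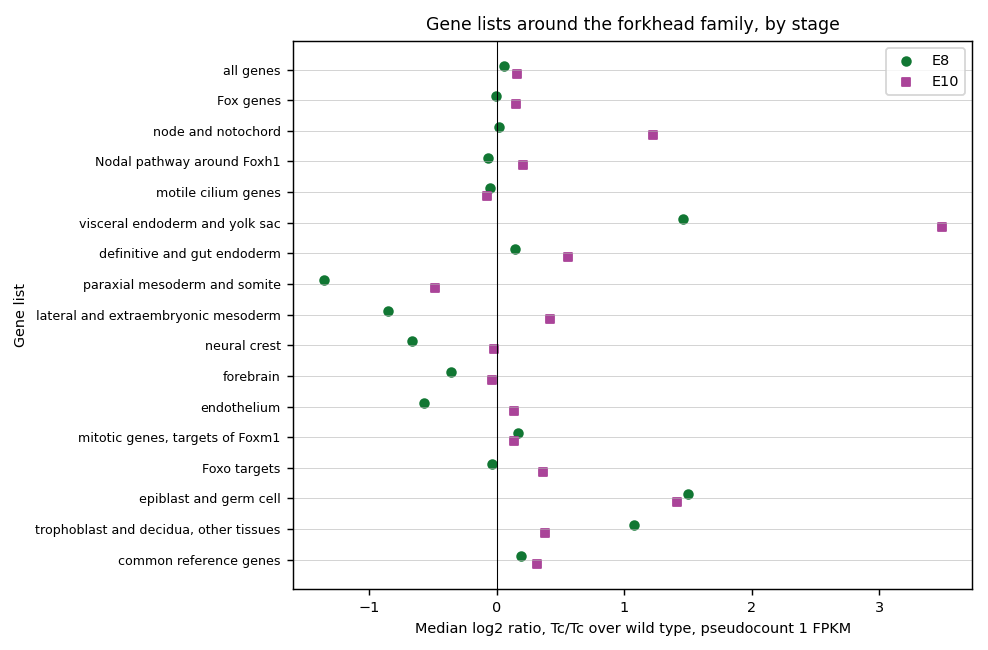
Median log2 ratio of Tc/Tc over wild type (horizontal, pseudocount 1 FPKM) for all genes, the forkhead genes and the 15 lists, circles for E8 and squares for E10. The yolk sac and epiblast lists lie to the right at both stages, the paraxial list lies to the left at both, and the forkhead median lies near 0 at E8 and beside that of all genes at E10.

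From E8 to E10, more members passed the rule in Tc/Tc than in wild type, and that difference was not tested. In wild type, 2 of 27 members were higher at E10, Foxp2 among them, and 4 were lower, Foxd4, Foxf1a, Foxh1 and Foxo4. That was 22.2% of the members, against 12.5% of all 14239 genes (7.36% higher and 5.15% lower). In Tc/Tc, 8 of 28 were higher, among them Foxb1, Foxc1, Foxc2, Foxd1, Foxd3, Foxi2 and Foxp2, and 3 lower, Foxa3, Foxh1 and Foxo4. That was 39.3% of the members, against 11.6% of all 13812 genes (7.78% higher and 3.78% lower). Foxd1 and Foxd3 are counted there against a Tc/Tc E8 level of 0, as Foxd4 is in wild type. Centred on the median of all genes in Tc/Tc (0.13), the split was 6 higher and 4 lower. Foxb1 and Foxc1 came inside and Foxi3 passed. Of all genes, 6.18% were then higher and 4.97% lower. These Tc/Tc ratios rest on the same Tc/Tc E8 library as the genotype ratios at E8, so they are no second measurement of its low values.

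Foxh1, Foxo4 and Foxp2 went the same way in both genotypes. Foxh1 had a log2 stage ratio of -2.99 in wild type and -1.81 in Tc/Tc, and Foxo4 of -1.02 and -1.53. Foxp2 had 1.97 in wild type and 1.66 in Tc/Tc (1.45 in wild type from the genotype tables). Foxf1a was lower at E10 in wild type (-1.10) and nearly level in Tc/Tc (0.27). Foxc2 had a log2 stage ratio of -0.68 in wild type and 1.46 in Tc/Tc, and Foxb1 of -0.80 and 1.10.

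**Figure D4:**
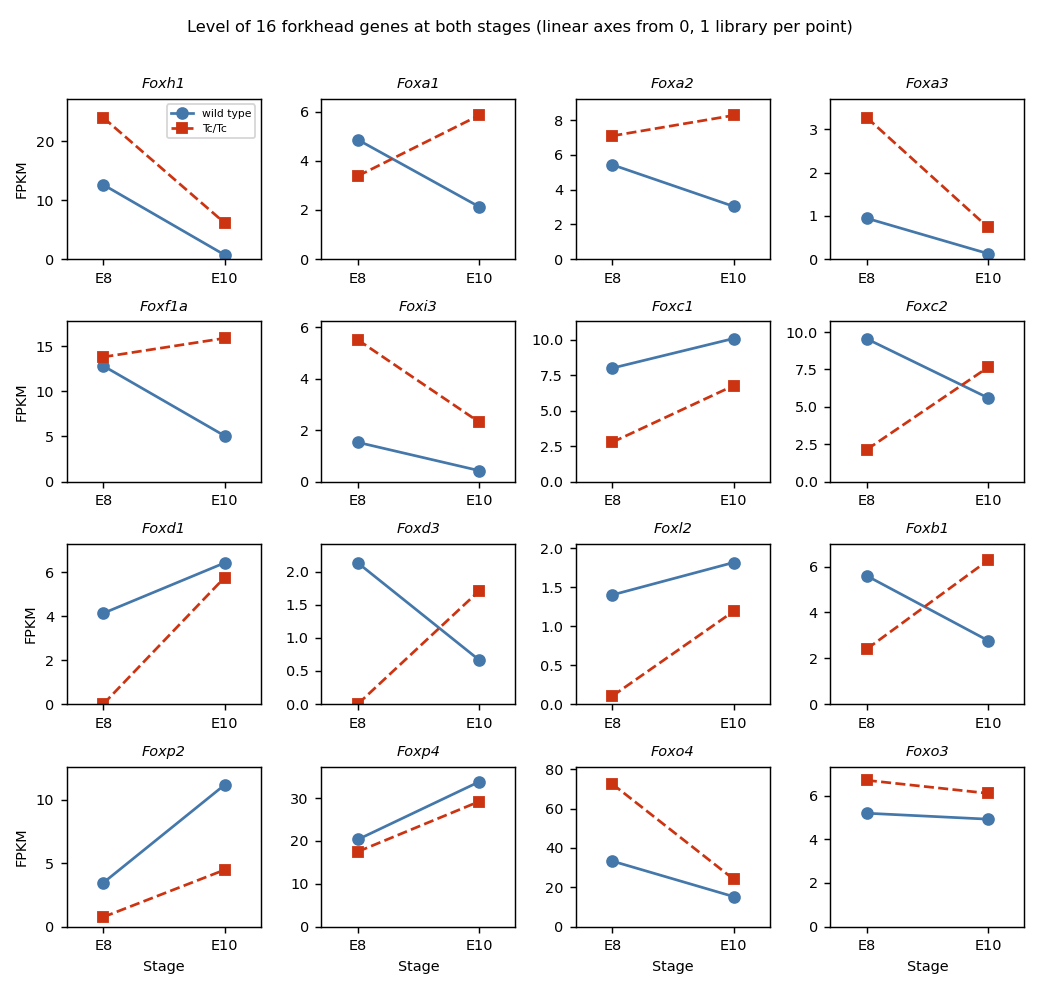
FPKM of 16 forkhead genes at E8 and E10, blue solid lines wild type and red dashed lines Tc/Tc, each axis linear from 0 and each point 1 library. The lines cross for Foxa1, Foxb1, Foxc2 and Foxd3; Tc/Tc lies above wild type at both stages for Foxh1, Foxa2, Foxa3, Foxf1a, Foxi3, Foxo3 and Foxo4.

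The error that could be measured is that of re-estimation, since 3 libraries were each estimated a second time in another table. Among members that reached 1 FPKM both times, the log2 differences had an SD of 0.03 for wild type E8 (25 members), 0.09 for Tc/Tc E8 (19) and 0.11 for wild type E10 (23), with a largest shift of 0.38, that of Foxp2. None of these shifts passed the size rule. Foxm1 was left out of them, since 1 of its estimates was 0 for Tc/Tc E8 and for wild type E10. Over all genes, 5 of 12935 shifts passed the rule in wild type E8, 17 of 12638 in Tc/Tc E8 and 20 of 13294 in wild type E10. The largest was 5.13, in wild type E10. Where second estimates could be used, for 107 of 109 member ratios, they changed no call. The 2 ratios of Foxm1 had no such value. Some second estimates were the same number as the first, as for Foxc1, Foxc2, Foxd1 and Foxl2, and could change nothing. Re-estimation says nothing of the spread between embryos. Among low genes, log ratios piled up at a value taken as that of 1 fragment in each library. It puts 1 fragment in Tc/Tc at 1.02 times its FPKM in wild type at E8 and 0.917 times at E10. Wild type E10 stood at 1.045 times wild type E8. By these values depth was similar between libraries. The peak was sought only among ratios near equality, so a larger difference in depth would not have been found.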

How the data were processed

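TRIzol LS was used for RNA and ScriptSeq v2 for the directional libraries, per the labels' protocols. The submitters' processing notes name Bowtie2, Cuffdiff and build mm9, without versions. What the authors deposited is 4 tables of FPKM values, each for a pair of libraries. Cuffdiff estimates the libraries of a table together, so 1 library can have different values in 2 tables. In the table of the Tc/Tc stages, a column of FPKM values is headed as wild type E10, against the table's name, and this 1 column was not used. The Tc/Tc stage ratio therefore set the stage table's Tc/Tc E8 against Tc/Tc E10 of the E10 genotype comparison, across tables. A gene at 0 in both columns of a table was taken as not estimated. For Tc/Tc E8 in the stage table, whose other column was unused, a 0 counted as an estimate where the E8 genotype table had a value above 0.

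Log2 ratios used a pseudocount of 1 FPKM and a minimum of 1 FPKM in 1 or both libraries (pandas 2.3.3, numpy 2.4.6). Other pseudocounts (0.1 and 5), minimums (none and 5 FPKM), a rule of 1.5, centring, equal totals and the second estimates were tried. The ratio code was checked on simulated data. With 1 library per group no test was run, and the deposited p-values were not used.

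The members and the 15 lists of 168 genes around them were chosen with earlier results of these data known, and the forkhead genes were grouped by letter. Of the members, 1 is counted in the totals but not reported here by name. The 2 genes of a list with the largest ratio were to be named; they are named here for the genotype comparisons of most lists. For 5 listed genes (3 cilium and 2 crest) no symbol matched, and they were not analysed here. Promoters came from a RefSeq table of another build than mm9; neighbours came from GENCODE M21, by name only.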

Additional observations from a re-analysis of the deposited data

Results flagged for a closer look

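The course from E8 to E10 went opposite ways in the genotypes for 2 members with levels above 0 in all 4 libraries, with 1 genotype past the size rule and the other at 0.5 or more in size. Foxb1 had a log2 ratio of E10 over E8 of -0.80 in wild type and 1.10 in Tc/Tc, and Foxc2 of -0.68 and 1.46. The difference was not tested, since each group has 1 library. Centred on the median of all genes, Foxb1 in Tc/Tc was at 0.97. Foxd3 also had less at E10 in wild type (-0.91) and more in Tc/Tc, where it was listed at 0 at E8, so no ratio is given for it there. The second estimates gave -0.81 and 1.10 for Foxb1, and -0.68 and 1.46 for Foxc2.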

How the results depend on the processing

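No paired analysis was possible because each group has 1 library. For the same reason no replicate could be left out. The counts of members moved most with the pseudocount and the rule. The share of all genes past the rule was recomputed only with centring and with equal totals. With a pseudocount of 5 there were 1 higher and 1 lower at E8, 1 higher and 0 lower at E10, 1 higher and 1 lower from E8 to E10 in wild type, and 1 higher in Tc/Tc. With a pseudocount of 0.1 there were 2 lower at E10, and 4 higher and 7 lower with stage in wild type. With a rule of 1.5 there were 0 higher and 3 lower at E8, 1 higher and 0 lower at E10, 1 higher and 1 lower with stage in wild type, and 3 higher in Tc/Tc. With a minimum of 5 FPKM there were 2 lower at E8, 1 higher with stage in wild type and 4 in Tc/Tc. With equal totals there was 1 higher at E8. Every other count stayed within 1.5 times its value. Of 828 ratios of single members recomputed under these settings, 758 kept their side of the rule, 55 came inside it and 15 passed it anew. A changed minimum left the value of each ratio still measured as it was. The 109 ratios recomputed with no minimum and the 67 with 5 FPKM could therefore only stay the same. The sign differed in 11 of the 828, all within the rule and at most 0.27 in size, and in 0 of those past it. Of the 11, 5 came with equal totals, 4 with centring and 2 with the second estimates. Only these settings could change a sign, since the pseudocount, the minimum and the rule leave it as it is. Many members lie near 1 to 5 FPKM, where the pseudocount sets the ratio. How many fragments stand behind such a value is not known, since depth is known only relative to the other libraries.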
